A study of Mus musculus with 9 samples.

Results

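Vascular connexins are the gap junction genes that blood vessels, lymphatic vessels and their valves are known to use. They were taken by gene symbol from the deposited expression table, and all 4 members (Gja1, Gja4, Gja5 and Gjc1) were found among its 24321 listed genes. The cells were meningeal lymphatic endothelial cells (MLECs) of male C57BL/6 mice 10 weeks of age, sorted from pooled meninges and sequenced in 9 libraries. Control MLECs came from mice given PBS (3 libraries), GL261 MLECs from mice given cells of the GL261 mouse glioma line (3 libraries) and B16 MLECs from mice given cells of the B16 mouse melanoma line (3 libraries). GL261 and B16 libraries are together called tumor-associated MLECs, as in the study. Per the labels each library was a pool of 6 mice with only 10 sorted cells, amplified by Smart-seq2. By the labels, collection was about 3 weeks after GL261 and about 2 weeks after B16 cells, so tumor type and time cannot be told apart. The results section of the study gives 2 weeks for both tumors, and its methods give 2 to 3 weeks. The labels place the injection in the cisterna magna and the methods place it under the dura, and the sort for CD31+ CD45- cells used LYVE-1 by 1 account and PDPN by another.

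Connexins are membrane proteins that form hexameric rings, and the rings of adjoining cells dock into gap junction channels through which ions and small metabolites pass. Gja1 (Cx43) is the most widely used connexin and is found in endothelium, smooth muscle and lymphatic vessels. Gja4 (Cx37) and Gja5 (Cx40) are the classical connexins of arterial endothelium, and Gja4 is also concentrated in lymphatic valves, whose formation requires it. Gjc1 (Cx45) is best known from vascular smooth muscle and the early heart. In the lymphatic system, Prox1 and Foxc2 are known to act upstream of Gja4 in the cells that build valves.

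The 4 genes lie on 4 chromosomes. In the mm9 build (GENCODE M1 annotation), Gja1 lies at chr10:56097106-56110225 on the plus strand, Gja4 at chr4:126988665-126991283 on the minus strand, Gja5 at chr3:96708616-96881339 on the plus strand and Gjc1 at chr11:102660893-102681014 on the minus strand. Each has its whole coding sequence in 1 exon, of 1149 bases in Gja1, 1002 in Gja4, 1077 in Gja5 and 1191 in Gjc1. The stretch that encodes the cysteines of the first extracellular loop, where connexins dock, is shown because it is a hallmark of the family and lets the 4 transcripts be compared base by base. Cysteine codons are in capitals, each sequence is written from 5′ to 3′ on the coding strand, and the reference genome is the source.
Gja1: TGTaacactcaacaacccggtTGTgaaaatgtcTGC
Gja4: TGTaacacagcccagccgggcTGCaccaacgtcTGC
Gja5: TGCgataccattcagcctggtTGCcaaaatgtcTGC
Gjc1: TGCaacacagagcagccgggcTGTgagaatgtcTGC
These 36 bases lie at chr10:56107512-56107547 in Gja1, chr4:126990018-126990053 in Gja4, chr3:96854711-96854746 in Gja5 and chr11:102662298-102662333 in Gjc1. Between 23 and 28 of the 36 bases were identical in a pair of genes. Over the whole coding sequence, pairs were 57.3% to 64.6% identical. Between whole transcripts, in either orientation, the longest run of identical bases was 26, in Gja1 and Gja4. The shortest of the longest runs was 11, in Gja4 and Gjc1. All such runs are shorter than a read of 150 bases, so a read lying fully in coding sequence can be told apart by its letters. Only 1 transcript per gene was compared in this way, with its non-coding parts included.

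Expression was deposited as FPKM, a count of fragments scaled by transcript length and by the mapped fragments of the library, so levels of different genes can be set side by side. The table holds no read counts, so that no counting error can be given for a value and the depth of a library is not known from it. Control libraries had 7303 to 8688 genes above 0 and tumor-associated ones 8736 to 10852, without overlap, and the summed FPKM did not overlap either. Tbp, a gene of the basic transcription machinery, was at 0 in 2 control libraries, and a connexin is therefore called listed at 0, not absent. Pecam1 (CD31) and Egfl7, which mark endothelium in general, were above 0 in every library, at 150 to 468 and 1037 to 1709 FPKM. Lyve1 was at 628 to 1895 FPKM, and the other lymphatic markers are given with the results they touch. Control library 1 stood apart from the rest by its smooth muscle genes, and values or calls without it are given for the members and for the list genes that were called. In sorted pools such as these, fewer cells of a type and less RNA per cell cannot be told apart.

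Gja1 had the highest level of the 4 genes in 8 of the 9 libraries, the exception being control library 1. It was listed at 75.8, 197 and 304 FPKM in control libraries 1 to 3, at 95.3, 211 and 180 FPKM in GL261 libraries 1 to 3, and at 89.9, 183 and 124 FPKM in B16 libraries 1 to 3. The highest and the lowest of the 9 values were both control libraries, and the 3 groups overlapped throughout. Among the genes above 0 in a library, Gja1 stood between the 83.3th and the 96.0th percentile in controls and between the 87.8th and the 94.9th in tumor-associated libraries. Its mean was 192 ± 114 FPKM in control (SD, n = 3), 162 ± 59.8 in GL261 (SD, n = 3) and 132 ± 47.1 in B16 MLECs (SD, n = 3).

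Gja4 was the second connexin of control MLECs and was low or listed at 0 in the tumor-associated ones. Control libraries 1 to 3 held 146, 39.9 and 67.2 FPKM. GL261 libraries 1 and 3 were listed at 0 and GL261 library 2 at 16.03 FPKM. B16 library 1 was listed at 0, and B16 libraries 2 and 3 at 26.7 and 22.6 FPKM. Every tumor-associated library lay below every control library, with a gap between 26.7 and 39.9 FPKM. Within the tumor-associated group the values fell into 3 libraries at 0 and 3 between 16.03 and 26.7 FPKM, and both tumors contributed to each set. The spread on the log2(FPKM + 1) scale was 0.93 in control and 2.46 in tumor-associated libraries (SD, n = 3 and 6).

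**Figure D1:**
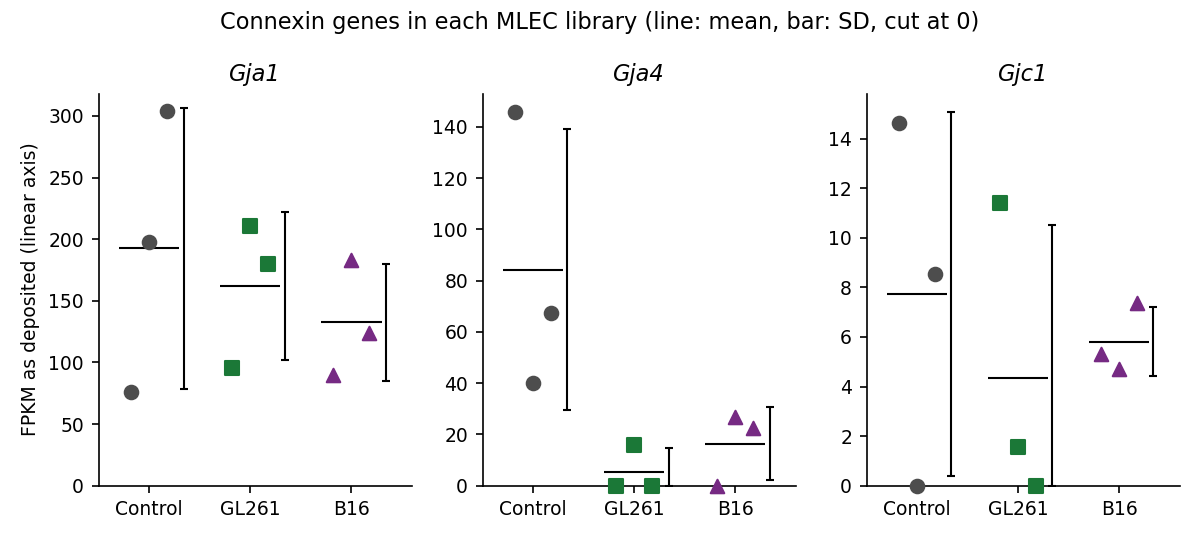
FPKM (linear axis) of Gja1, Gja4 and Gjc1 in 3 control, 3 GL261 and 3 B16 libraries, 1 point per library, with the group mean as a line and the SD as a bar cut at 0. The Gja1 points of the 3 groups overlap, whereas all 6 tumor-associated Gja4 points are at or below 26.7 and all 3 control points at or above 39.9.

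Gjc1 was a minor connexin in every group. Its FPKM was 14.6, 0 and 8.53 in control libraries 1 to 3, 11.4, 1.57 and 0 in GL261 libraries 1 to 3, and 5.33, 4.72 and 7.39 in B16 libraries 1 to 3. The 3 B16 libraries lay inside the range of the controls, and 1 control and 1 GL261 library were listed at 0. Means were 7.72 ± 7.35 FPKM in control (SD, n = 3), 4.33 ± 6.19 in GL261 (SD, n = 3) and 5.81 ± 1.40 in B16 MLECs (SD, n = 3).

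Gja5, which accompanies Gja4 in arterial endothelium, was listed at 0 in all 9 libraries. It is therefore the member without any measured level, and no comparison was possible for it. Its annotated span overlaps that of Gpr89 on the other strand, which was above 0 in 7 libraries.

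The order of mean levels was the same in control and tumor-associated MLECs, but the overlap between genes differed. In control MLECs the mean FPKM fell from Gja1 over Gja4 (84.3 ± 54.9, SD, n = 3) to Gjc1 and Gja5. Gja1 and Gja4 overlapped in their ranges there, Gja4 and Gjc1 did not. In tumor-associated MLECs Gja1 (147 ± 50.8, SD, n = 6) was above Gja4 (10.9 ± 12.4, SD, n = 6) without overlap, and Gja4 and Gjc1 (5.07 ± 4.09, SD, n = 6) overlapped.

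The share of each gene in the summed FPKM of the 4 members does not depend on the scale of a library. Gja1 made up 32.1%, 83.2% and 80.1% of this sum in control libraries 1 to 3, 89.3%, 92.3% and 100% in GL261 libraries 1 to 3 and 94.4%, 85.4% and 80.6% in B16 libraries 1 to 3. The GL261 values were all above the control values, and B16 library 3 fell between controls. Gja4 made up 61.7%, 16.8% and 17.7% in control libraries, and 14.6% at most in tumor-associated libraries, so that its shares did not overlap, although the step from 14.6% to 16.8% was small. The sum itself was 236, 237 and 380 FPKM in control libraries 1 to 3 and 95.2 to 228 FPKM in the 6 tumor-associated libraries. These sums did not overlap either.

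**Figure D2:**
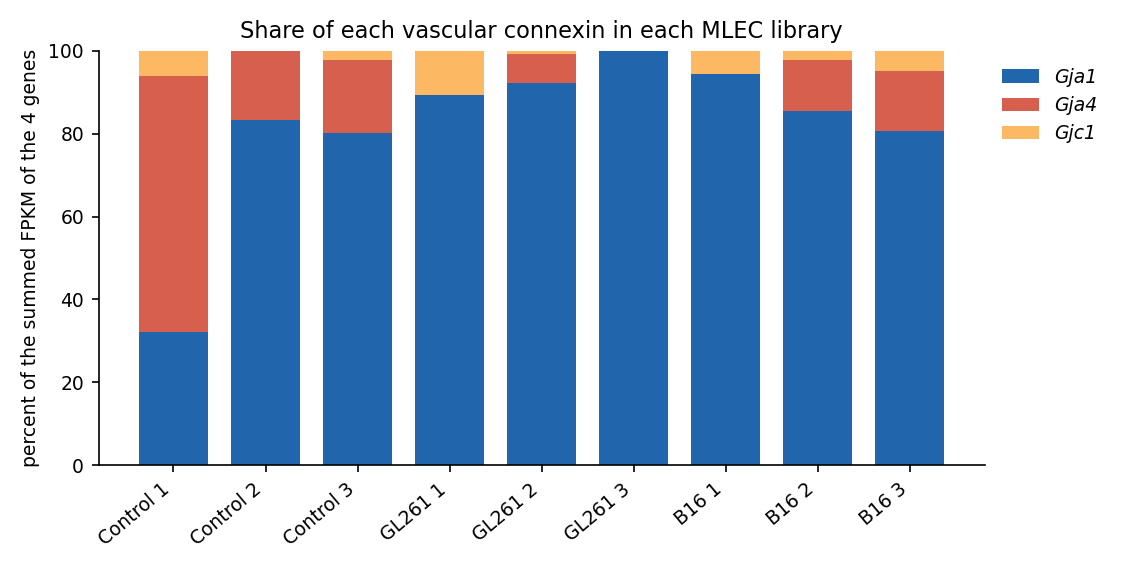
Percent of the summed FPKM of the 4 vascular connexins that Gja1, Gja4 and Gjc1 made up in each of the 9 libraries (stacked bars, no error, 1 library each). Gja4 takes 61.7% in control library 1 and at most 14.6% in the tumor-associated libraries, and Gja1 takes 80.6% or more in all 6 of these.

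The first comparison asked how MLECs of tumor-bearing mice differed from those of control mice. Gja4 had the lowest estimate of the members, with a mean of 84.3 FPKM in control and 10.9 FPKM in tumor-associated MLECs, a ratio of 7.74, and was lower in 6 of 6 tumor-associated libraries than in any control. Gja1 (192 and 147 FPKM) and Gjc1 (7.72 and 5.07 FPKM) had smaller ratios and overlapping libraries. Differences were tested with limma on log2(FPKM + 1) over the 9955 genes that reached 1 FPKM in 3 or more libraries, which included 3 of the 4 members. In limma 0 of these 3 passed the adjusted threshold of 0.05, against 3.93% of all genes tested, and 1 of them (Gja4) had an unadjusted p under it, against 19% of all genes. For Gja4 the difference was -3.97 (SE 1.23, 95% confidence interval -6.63 to -1.32), with an unadjusted p of 0.0066 and an adjusted p of 0.0964 in limma. A two-sided exact permutation test of the same mean difference gave p = 0.0238, where 0.0119 is the smallest value that 3 against 6 libraries allow. Values without overlap and lower in tumor-associated MLECs were seen for 4.44% of the genes tested, and 23 genes had a lower estimated difference than Gja4. Gja4 is also in a gene list that the study chose on these same libraries, so its direction here is not independent of that choice.

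For Gja1 the difference was -0.25 (SE 0.45, 95% confidence interval -1.21 to 0.72, adjusted p = 0.816 in limma). For Gjc1 it was -0.20 (SE 1.03, 95% confidence interval -2.43 to 2.03, adjusted p = 0.943 in limma). Both intervals held changes of either sign and left out the Gja4 estimate of -3.97, and the interval of Gjc1 was the wider. The median of the 3 tested members was -0.25, beside a median of 0.20 for all genes tested, and 57.2% of all genes tested had a positive difference.

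Taken by tumor, Gja4 had the same sign in both comparisons with control, which share their 3 control libraries. In GL261 against control MLECs its difference was -4.85 (SE 1.40, adjusted p = 0.0933 in limma), and 3.49% of all genes passed. In B16 against control MLECs it was -3.10 (SE 1.40, adjusted p = 0.329 in limma), where 2.11% of all genes passed. Neither passed, and the unadjusted p-values in limma were 0.0050 and 0.0485. Without B16 library 1 in the fit, the GL261 difference of -4.85 passed (adjusted p = 0.0383 in limma), whereas the B16 difference went to -1.54 (adjusted p = 0.646 in limma). Without control library 1 the differences were -4.36 in GL261 (adjusted p = 0.199 in limma) and -2.61 in B16 MLECs (adjusted p = 0.471 in limma). The direct comparison of GL261 with B16 MLECs gave -1.75 for Gja4 (SE 1.40, 95% confidence interval -4.83 to 1.32, adjusted p = 1.00 in limma), so a difference between the tumors was not resolved. It ranged from -3.31 without B16 library 1 to -0.92 without B16 library 2. There 0.01% of all genes passed.

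For Gja1 the estimates by tumor were smaller than their errors, at -0.11 (SE 0.53) in GL261 and -0.38 (SE 0.53) in B16 MLECs. Their 95% confidence intervals, -1.26 to 1.04 and -1.54 to 0.77, both held 0. The difference changed sign without control library 3, the library with the highest Gja1, to 0.19 in tumor-associated, 0.32 in GL261 and 0.051 in B16 MLECs against control. Gjc1 had estimates of opposite sign in GL261 and B16 MLECs, at -0.74 and 0.34 (SE 1.20 for both), and the difference between GL261 and B16 was -1.08 (95% confidence interval -3.72 to 1.55). Neither Gja1 nor Gjc1 passed in any of these comparisons in limma, at adjusted p-values of 0.789 or more.

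**Figure D3:**
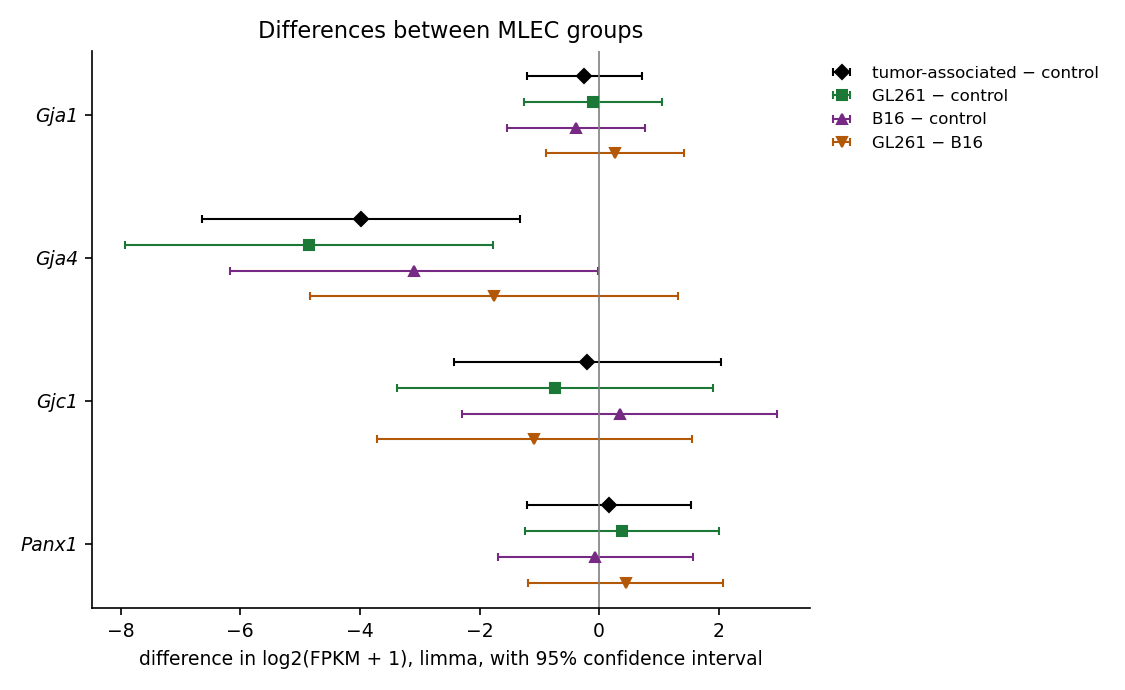
Estimated difference in log2(FPKM + 1) between MLEC groups (x axis, limma) for Gja1, Gja4, Gjc1 and Panx1, with 95% confidence intervals that are not adjusted for the number of genes. The Gja4 interval for tumor-associated against control MLECs runs from -6.63 to -1.32, and those of Gja1, Gjc1 and Panx1 cross 0 in every comparison.

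Control library 1 stood apart from the other controls in a way that touches Gja4. It had the highest Gja4 (146 FPKM), the lowest Gja1 (75.8 FPKM), and high levels of smooth muscle genes, which were chosen for this description after their values were seen. Acta2, the smooth muscle actin, was at 505 FPKM, Tagln at 641 and the smooth muscle myosin Myh11 at 57.2. In control libraries 2 and 3, Acta2 and Tagln were listed at 0, with Myh11 at 0.0813 and 0. Over the 11 genes of the mural cell list, sums were 1270, 203 and 170 FPKM in control libraries 1 to 3 and 17.6 to 137 FPKM with tumors, without overlap and in the direction of Gja4. Kcnj8, a potassium channel gene known from pericytes, made up most of the sum in control libraries 2 and 3 and was above 0 in every library (59.9 to 195 FPKM in controls, 6.56 to 116 FPKM with tumors). Of the 3 mural genes tested, Kcnj8 (-1.23) and Tagln (-2.63) had estimates below 0. Abcc9 went the other way, against the direction of Gja4 (1.77, SE 0.75, adjusted p = 0.221 in limma), and none of the 3 passed. Without Kcnj8 and Abcc9, which were set aside after their values were seen, the remaining 9 genes summed to 1210, 0.0813 and 0 FPKM in control libraries 1 to 3, to 0, 6.69 and 0 in GL261 and to 0.209, 11.4 and 1.33 in B16 libraries 1 to 3. The 3 tumor-associated libraries with Gja4 above 0 were also the 3 with the highest of these sums.

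In control libraries 2 and 3, Gja4 was at 39.9 and 67.2 FPKM, with Acta2 and Tagln listed at 0 and Kcnj8 at 195 and 169 FPKM. The part of the mural genes in the Gja4 difference was not tested. Without control library 1 the tumor-associated libraries still lay below both remaining controls. The Gja4 difference was then -3.48 (SE 1.46, adjusted p = 0.241 in limma), and the ratio of mean FPKM was 4.92. The two-sided exact permutation test gave p = 0.143, where 2 against 6 libraries can reach 0.0357. Gjc1, the other member known from smooth muscle, was at 14.6 FPKM in control library 1, and its difference went from -0.20 to 0.58 (SE 1.13, adjusted p = 0.824 in limma) without that library.

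**Figure D4:**
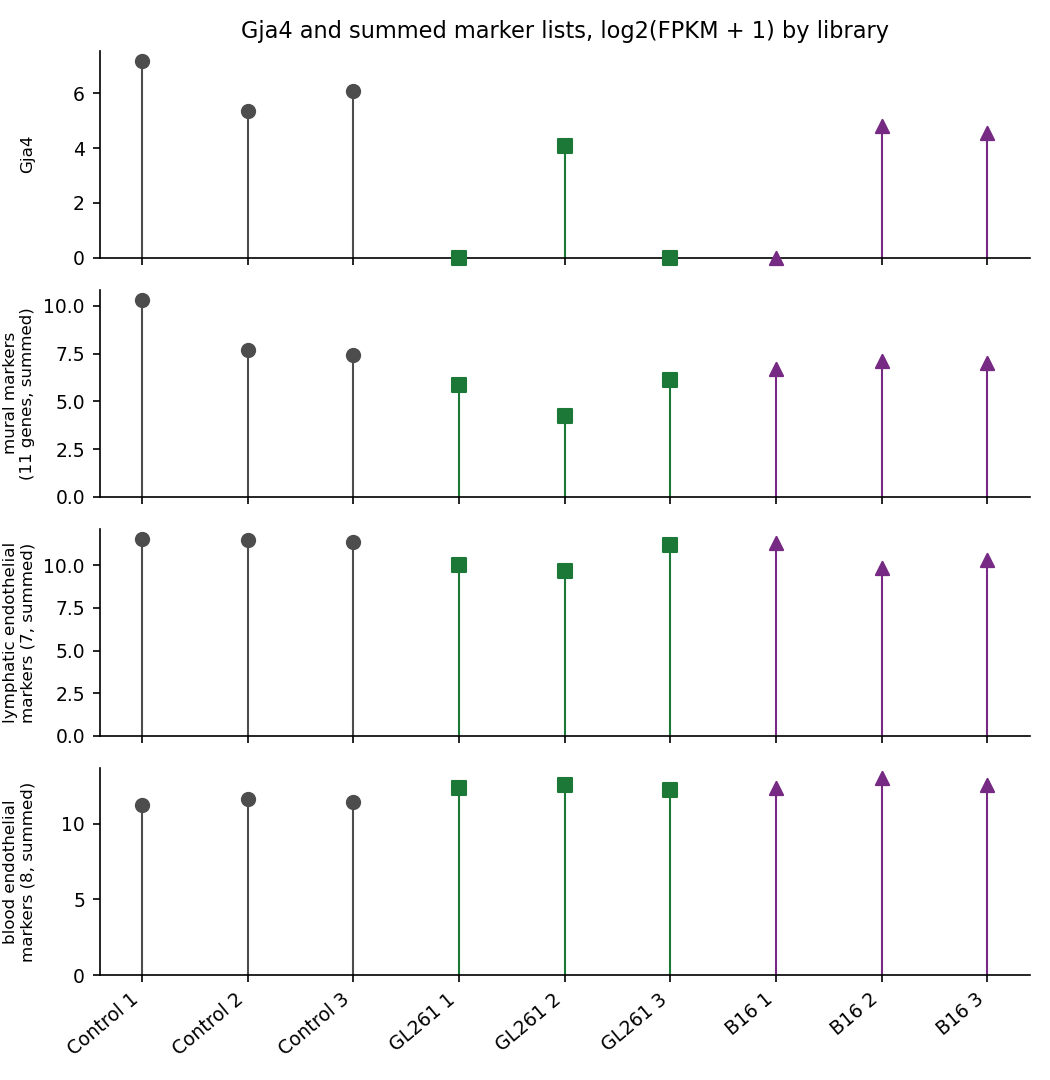
Gja4 and the summed FPKM of 11 mural, 7 lymphatic endothelial and 8 blood endothelial markers, each as log2(FPKM + 1) for the 9 libraries (1 point per library). Gja4 and the mural sum are both highest in control library 1 (146 and 1270 FPKM). In control libraries 2 and 3 the mural sum is 203 and 170 FPKM, most of it from the single gene Kcnj8.

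Endothelial identity genes also differed between the groups in which Gja4 was compared. Against 3.93% of all genes called, 3 of 6 tested lymphatic markers were lower in tumor-associated MLECs in limma, namely Flt4 (the VEGF-C receptor, -1.80, adjusted p = 0.0160), Reln (-2.35, adjusted p = 0.0335) and Mmrn1 (-2.56, adjusted p = 0.0054). Of 8 blood endothelial markers, 6 were higher in limma (adjusted p of 0.0338 or less), from Plvap (1.29) over Emcn (3.41), Vwf (4.23), Esam (6.03) and Flt1 (6.18) to Cd34 (6.38). Flt1 was at most 0.856 FPKM in controls, so that it was tested through the group in which it was high. Vwf (0 to 1.92 FPKM) and Cd34 (0.370 to 14.3 FPKM) did not reach 1 FPKM in all 3 controls either. They too passed the filter only with the tumor-associated libraries. Cldn5, the claudin of endothelial tight junctions and named outside the rule for genes, had an estimate of the other sign (-0.63, adjusted p = 0.211 in limma) and was lower in GL261 against control MLECs (-1.01, adjusted p = 0.0215 in limma, and -1.05, adjusted p = 0.0487 without control library 1). The lymphatic list summed to 2567 to 2961 FPKM in controls and 797 to 2511 FPKM with tumors, and the blood endothelial list to 2332 to 3120 and 4771 to 8164 FPKM, both without overlap. Prox1, the master regulator of lymphatic identity and named here after its values were seen, was at 20.9 to 42.2 FPKM in controls and 1.87 to 16.5 FPKM with tumors (-2.79, adjusted p = 0.0509 in limma). The sort markers Lyve1 (-0.36, adjusted p = 0.629 in limma) and Pdpn (-1.48, adjusted p = 0.235 in limma), named outside the rule for genes, were not called. All 6 tested lymphatic markers had estimates below 0. Without control library 1, calls numbered 2 in the lymphatic and 4 in the blood endothelial list. The part of this shift in the Gja4 difference was not tested.

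The remaining marker lists had few genes that could be tested. Dcn, a fibroblast proteoglycan, was at 15.7 to 44.9 FPKM in controls and 0 to 0.146 FPKM with tumors, the direction of Gja4 (-4.60, adjusted p = 0.0011 in limma), and was the 1 gene of this list of 7 that could be tested. It reached 1 FPKM in the controls only, so that it was tested through the group in which it was high, and without control library 1 it could not be tested. Col3a1 and Col1a2 stayed at or below 2.65 FPKM. In the arachnoid barrier list, Ptgds reached 98.9 FPKM in 1 control library and Cldn11 25.8 FPKM in another, and both stayed at or below 2.22 FPKM with tumors. S100b of the astrocyte list was at 25.3 to 37.0 FPKM in B16, 0 to 3.00 FPKM in GL261 and at or below 0.739 FPKM in control libraries. It was higher in B16 against control MLECs (4.80, adjusted p = 0.0135 in limma), also without control library 1 (4.67, adjusted p = 0.0333 in limma). S100b reached 1 FPKM only with tumors, so that it was tested through the libraries in which it was high. Aqp4 was at or below 0.0893 FPKM. In the leukocyte list Cd68 was at 0 to 43.2 FPKM and Csf1r at or below 4.61 FPKM. Pmel and Dct of the melanocyte list were at or below 4.07 FPKM. The part of these genes in the Gja4 difference was not tested.

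A further 15 connexin and pannexin genes were described, and 14 of them were listed at 0 in all 9 libraries. The remaining one was Panx1. This gene, which encodes a channel protein related to connexins in topology but not in sequence, was at 0 to 2.28 FPKM over the 9 libraries and differed by 0.16 (SE 0.63, adjusted p = 0.925 in limma).

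Genes whose products bind, scaffold or phosphorylate connexins gave no call. Of 15 such genes, 12 were tested and 0 passed in limma, with 6 estimates above and 6 below 0 and a median of 0.051, beside 0.20 for all genes. Without adjustment 2 of the 12 were under the threshold in limma, beside 19% of all genes tested, namely Cav1 and the drebrin gene Dbn1, which lies outside the rule for names and was at 0 to 31.5 FPKM in controls and 20.4 to 74.9 FPKM with tumors. Cav1, the caveolar coat protein that associates with Gja1, was at 199 to 326 FPKM in controls and 56.1 to 172 FPKM with tumors. Its groups did not overlap, and its difference was -1.25 (SE 0.38, adjusted p = 0.0941 in limma). Ctnnb1, the beta-catenin of adherens junctions, was at 83.6 to 184 and 94.0 to 201 FPKM, with a difference of 0.17 (SE 0.35, adjusted p = 0.841 in limma). Tjp1 (ZO-1), which caps the tail of Gja1 and was named outside the rule for genes, was at 12.4 to 20.9 FPKM in controls and 4.28 to 9.41 FPKM with tumors, without overlap (-1.04, SE 0.58, adjusted p = 0.356 in limma).

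Genes of lymphatic valves gave 1 call in the direction opposite to the Gja4 estimate. Of 17 listed genes 16 were tested, 1 rose and 0 fell in tumor-associated MLECs, where 2.9% of all genes rose and 1.02% fell, with a median of -0.32 beside 0.20 for all genes. The one that rose was Gata2, a transcription factor required for valves, at 0 to 7.44 FPKM in controls and 9.24 to 56.7 FPKM with tumors (3.31, SE 0.83, adjusted p = 0.0431 in limma). Its control median was 0.20 FPKM, so that Gata2 was tested through the group in which it was high. Of the 16 estimates, 7 were above 0 and 9 below. Without adjustment 5 of the 16 were under the threshold in limma, beside 19% of all genes tested. Gata2, Acvrl1 and Foxc2 were higher. Prox1 (-2.79, adjusted p = 0.0509 in limma) and Nfatc1 (-1.29, adjusted p = 0.211 in limma), named outside the rule for genes, were lower. Without control library 1, Gata2 was no longer called and Acvrl1 was. Klf2 and Klf4, which respond to flow, were high in every library, at 51.1 to 273 and 44.8 to 164 FPKM, and neither passed (adjusted p of 0.430 and 0.336 in limma). Foxc2, named after its values were seen as a known regulator of Gja4, was listed at 0 in all 3 controls, at 1.53, 1.99 and 0 FPKM in GL261 and at 7.25, 7.43 and 8.67 FPKM in B16 libraries. It passed in B16 against control MLECs (adjusted p = 0.0457 in limma), in which the Gja4 estimate was -3.10, and not without control library 1 (adjusted p = 0.0954 in limma). Having reached 1 FPKM only with tumors, Foxc2 was tested through the group in which it was high.

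Arterial genes, the usual company of Gja4 and Gja5, gave 1 call among 11 tested of 15 listed, beside 3.93% of all genes, with a median of 0.78 beside 0.20 for all genes. Nrp1, a co-receptor of VEGF-A, rose from at most 0.819 FPKM in controls to 6.85 to 39.5 FPKM with tumors (3.91, SE 0.74, adjusted p = 0.0106 in limma) and was called without control library 1 too. Below 1 FPKM in every control, Nrp1 was tested through the group in which it was high. Dll4 and Notch1, ligand and receptor of Notch signaling, did not pass, at 0.77 (SE 0.72) and -0.55 (SE 0.51). Of the 11 arterial estimates, 9 were above 0. The 2 below 0 were Notch1 and, named outside the rule for genes, Unc5b (-2.34, SE 0.76, adjusted p = 0.112 in limma). Venous genes gave 2 calls among 7 tested of 8 listed, both higher, beside 2.9% of all genes called higher. These were Aplnr, the apelin receptor, listed at 0 in all 3 controls and at 0.293 to 107 FPKM with tumors (adjusted p = 0.0431 in limma), and Selp, the P-selectin gene (3.22, SE 0.81, adjusted p = 0.0443 in limma). Aplnr was thus also tested through the group in which it was high. Selp was at 0.945 to 34.7 FPKM in controls and 24.1 to 81.6 FPKM with tumors, so its groups overlapped. It did not reach 1 FPKM in all 3 controls and passed the filter only with the tumor-associated libraries. Without control library 1 neither Aplnr nor Selp was called. Of the 7 venous estimates, 5 were above 0 and 2 below. The 2 below were Nr2f2 (-0.94, adjusted p = 0.224 in limma) and Nrp2 (-1.55, adjusted p = 0.116 in limma), both named outside the rule for genes. Ackr1, also outside that rule, was called in GL261 against control MLECs (8.60, adjusted p = 0.0113 in limma). It was called there without control library 1 too (adjusted p = 0.0314 in limma), and not in B16 MLECs (2.28, adjusted p = 0.523 in limma). Ackr1 was tested through the group in which it was high.

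**Figure D5:**
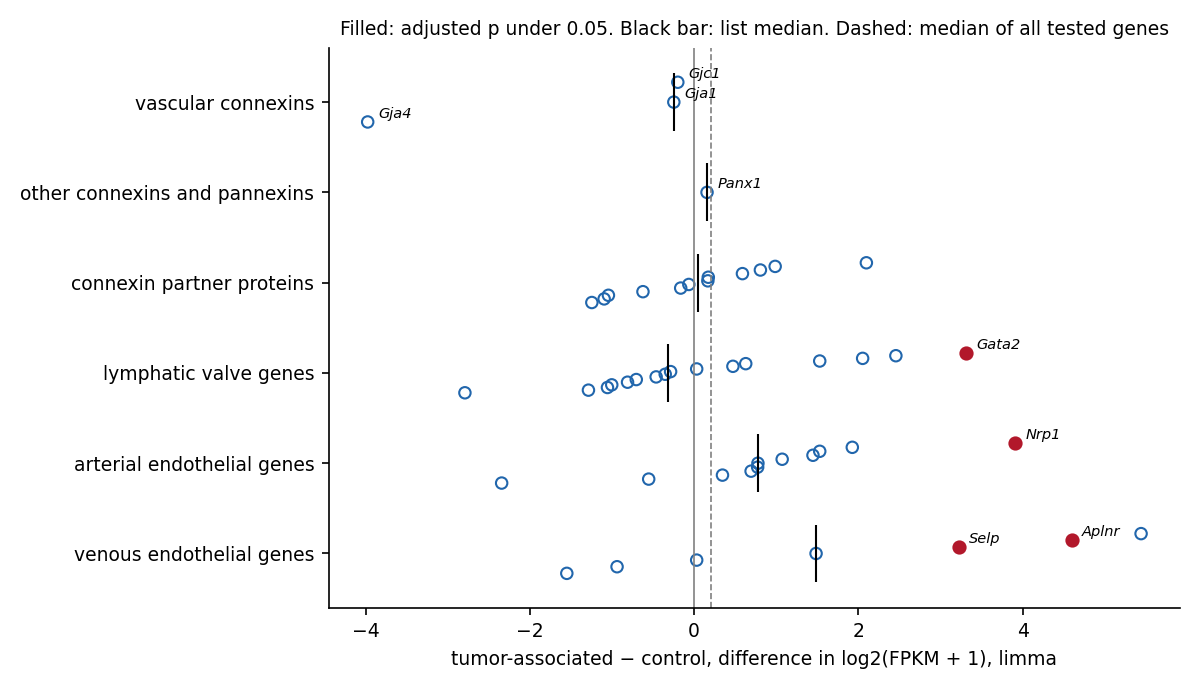
Tumor-associated minus control difference in log2(FPKM + 1) (x axis, limma) for each tested gene of 6 lists, with genes past the adjusted threshold filled, list medians as black bars and the median of all tested genes (0.20) dashed. Gja4 lies at -3.97 without passing, and the 4 filled genes (Gata2, Nrp1, Selp and Aplnr) all lie above 3.

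Genes with the profile most like each member were sought over the 9 libraries, as the root mean square difference of log2(FPKM + 1) after centring. For Gja1 the nearest were Cpne3 (0.17), Zfand5 (0.30) and Snx4 (0.30), against a spread of Gja1 itself of 0.63. Cpne3 was lowest in control library 1 (5.01 FPKM) and highest in control library 3 (18.5 FPKM), as Gja1 was. For Gja4 the nearest were Usb1 (1.02), Gm7367 (1.25) and Selo (1.25), against a spread of 2.66. Usb1 and Selo were listed at 0 in the same 3 tumor-associated libraries as Gja4. For Gjc1 the nearest were Tsta3 (0.62), Ercc3 (0.69) and Parn (0.70), against a spread of 1.40. These distances are a description over 9 libraries that fall into the same groups.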

How the data were processed

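RNA-seq of 9 MLEC pools was analysed. Libraries were made with Smart-seq2 per the labels, a name the methods do not use (18 cycles in both), read pairs of 150 bp were aligned to mm9 with TopHat2 2.0.12 and expression was computed with Cufflinks 2.2.1, and the authors deposited FPKM per gene symbol. The annotation used is not given in the sources used here. The deposited FPKM were not rescaled. Library depth is unknown from the file, so that precision rests on the spread between libraries.

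log2(FPKM + 1) was tested with limma 3.58.1 (R 4.3.3, eBayes with a trend) on 9955 genes that reached 1 FPKM in 3 or more libraries (p-values adjusted after Benjamini-Hochberg, threshold 0.05). Both tumors were joined for tumor-associated against control, and 3 groups were fitted for single tumors. Exact permutation tests were two-sided. The code was tested on simulated data.

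Members, marker lists and tests were chosen with earlier results of these data known. Named were the members, other connexins and pannexins with FPKM of 1 or more, list genes past the threshold (otherwise the 2 of highest mean) and the 3 genes most like each member. Genes outside this rule are marked, and some genes are not reported here. Gene positions and sequences came from mm9 with GENCODE M1. Alternatives were another pseudocount (0.1), no filter on low values, 2 rescalings, eBayes without a trend, a replicate block, detected genes as a covariate and each library left out.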

Additional observations from a re-analysis of the deposited data

Results flagged for a closer look

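Among the 6 tumor-associated libraries, 53 genes were tested for a single library standing apart (Dixon's ratio above its 95% critical value), and 10 were found. Chance gives about 1 in 20, a rate that does not hold for the 6 of them in which all but 1 library were listed at 0, since the ratio is then fixed. In GL261 library 3, Prox1 was at 16.5 FPKM with the others at 1.87 to 3.72 and Parn was at 0 FPKM with the others at 7.35 to 19.1. In GL261 library 2, Kcnj8 was at 6.56 FPKM with the others at 45.8 to 116. In B16 library 2, Acta2 was at 6.34 FPKM with the others at or below 0.209. In each of the remaining 6 genes, 1 library was above 0 and the other 5 were listed at 0, namely Col3a1 (2.65 FPKM, GL261 library 1), Col1a2 (1.22 FPKM), Csf1r (4.61 FPKM) and Pmel (4.07 FPKM) in GL261 library 2, Dct (0.783 FPKM, B16 library 2) and Aqp4 (0.0893 FPKM, B16 library 3). Gja1, Gja4 and Gjc1 had no library standing apart by this measure. GL261 libraries 2 and 3 differed in Gja4 (16.03 and 0 FPKM).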

How the results depend on the processing

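Gja4 kept its negative sign in all 64 alternatives over the 4 comparisons. In tumor-associated against control MLECs it ranged from -5.65 to -3.48, with adjusted p from 0.0688 to 0.499 in limma. It passed in 1 alternative (GL261 against control without B16 replicate 1, -4.85), and over the leave-one-out fits it ranged from -6.21 to -4.17 there, from -3.94 to -1.54 in B16 against control and from -3.31 to -0.92 in GL261 against B16. Gja1 and Gjc1 changed sign in 6 and 8 of 64 alternatives and never passed. Leaving out 1 library at a time, Gja1 ranged from -0.81 to 0.19 (tumor-associated), from -0.67 to 0.32 (GL261) and from -0.94 to 0.051 (B16), and Gjc1 from -1.40 to 0.58, from -1.94 to 0.093 and from -0.86 to 1.12. Gjc1 in tumor-associated MLECs was 0.20 with a pseudocount of 0.1 and 0.53 with detected genes as a covariate. With that covariate Gja1 in GL261 against B16 was -0.10 and Panx1 in B16 against control 0.22. Leaving out 1 library, Panx1 ranged from -0.13 to 0.73 (tumor-associated) and from -0.57 to 0.51 (B16).

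Genes past the threshold numbered 391, 347 and 210 against control (tumor-associated, GL261, B16). With all genes above 0 tested they were 254, 218 and 135, and with the covariate 13, 6 and 17. Leaving out 1 library gave 245 to 444, 105 to 363 and 69 to 274. GL261 against B16 gave 1, 2 with quantile normalization, 6 without a trend and 1 to 4 leaving out 1 library. Rescaled to equal sums, the median of all genes moved from 0.20 to 0.054 and the share of higher calls from 73.9% to 64.4%. The causes were not tested.

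Replicate numbers did not pair the libraries: deviations of same-numbered libraries correlated at -0.033 to 0.044 and of others at -0.030 to 0.052. With the number as a replicate block, 303 genes passed in tumor-associated, 230 in GL261 and 146 in B16 MLECs against control, and Gja4 had the same difference (-3.97, adjusted p = 0.102 in limma).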
